A study of Mus musculus with 42 samples.

Results

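The genes described here are 39 cell cycle and proliferation genes measured in mouse liver, out of 19778 genes listed in at least 1 of the series' 6 tables. They were taken by name: the cyclins and kinases that drive the cycle, the proteins that license and copy DNA, the enzymes that supply deoxynucleotides, and the checkpoint, spindle and chromosome proteins of mitosis. No measured value entered that rule, although the genes were chosen with earlier results of these data known. The livers came from 42 male C57BL/6J mice, in 6 groups of 7. WT lean and KO lean mice ate a diet with 10% of its energy from lard. WT obese and KO obese mice ate one with 60%. Both diets ran for 15 weeks from 6 weeks of age. The KO mice lacked ChemR23 (gene Cmklr1), the receptor of resolvin E1, through CRISPR/Cas9 editing, and the WT mice were their littermates. Each of these 4 groups received vehicle (ethanol in saline buffer) on 4 consecutive days. The WT obese+RvE1 and KO obese+RvE1 groups also ate the 60% diet. On those 4 days they received 300 ng of resolvin E1 (RvE1) a day by the same intraperitoneal route. All mice were fasted for at least 4 hours before liver was taken on day 5, so that every group carries the injections and the fast.

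In background, a cell enters the cycle when D-type and then E-type cyclins free the E2F factors that switch on the genes for DNA replication, and it divides after cyclin B and Cdk1 drive mitosis. Most adult hepatocytes rest outside the cycle and return to it after injury or loss of tissue, and division also occurs in the liver's resident macrophages, lymphocytes and endothelial cells. Cdkn1a (p21) brakes the cycle and, in liver, also answers stress, feeding state and steroid hormones.

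Many of these genes share short promoter elements, and 3 of them were searched on both strands between 250 bases before and 50 bases after the annotated start in the RefSeq promoters of GRCm38.p6, which held 30 of the 39 genes. An E2F-type element was spelled TTTGGCGC, TTTCCCGC, TTTGCCGC or TTTCGCGC. It occurred in 2.26% of all 32851 windows, and 8 of the 30 genes had it, namely Cdk1, Mcm3, Mcm5, Mcm6, Mcm7, Cdt1, Cdc6 and Uhrf1. The cell cycle homology region (CHR), at which G2 and M phase genes are held silent in resting cells, was spelled TTTGAA or TTCGAA. It occurred in 19.2% of all windows and in 14 of the 30 genes, Mki67, Top2a, Plk1 and Kif11 among them. The CCAAT box, the site of NF-Y, occurred in 37.4% of all windows and in 22 of the 30 genes. Such a match describes the letters only. The 150 bases before the start are shown for Rrm2, Top2a and Kif11, which were called with diet in KO mice, and for Cdk1, which holds all 3 elements. Capitals mark the elements on either strand. Rrm2 lies at chr12:24708104-24708253, plus strand, Top2a at chr11:99024190-99024339, minus strand, Kif11 at chr19:37376232-37376381, plus strand and Cdk1 at chr10:69352913-69353062, minus strand.
Rrm2: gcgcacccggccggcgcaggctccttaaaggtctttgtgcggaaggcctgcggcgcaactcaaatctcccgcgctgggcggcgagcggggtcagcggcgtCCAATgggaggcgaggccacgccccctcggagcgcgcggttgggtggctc
Top2a: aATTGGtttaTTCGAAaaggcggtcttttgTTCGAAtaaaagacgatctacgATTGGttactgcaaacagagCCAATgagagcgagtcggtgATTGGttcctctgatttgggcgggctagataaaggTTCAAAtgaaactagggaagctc
Kif11: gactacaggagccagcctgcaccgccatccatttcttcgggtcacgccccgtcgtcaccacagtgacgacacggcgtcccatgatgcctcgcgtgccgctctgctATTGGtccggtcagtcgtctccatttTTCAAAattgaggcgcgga
Cdk1: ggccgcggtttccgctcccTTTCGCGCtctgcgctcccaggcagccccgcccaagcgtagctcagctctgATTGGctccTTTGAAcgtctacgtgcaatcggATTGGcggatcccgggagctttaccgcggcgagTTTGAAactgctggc
The Rrm2 stretch holds a CCAAT box and neither of the other elements, while the Top2a and Kif11 stretches hold CCAAT boxes and CHR elements. Gmnn, Foxm1 and Aurkb, which are described below, were not among the 30 genes.

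Reads on listed genes ranged from 15992525 to 43841120 per liver, with group medians between 19796716 and 31121723. Values below are normalized counts (reads divided by a size factor that the authors computed separately within each pair of groups), so groups are compared only within a table. A gene was called when limma gave a Benjamini-Hochberg adjusted p under 0.1 over all genes tested and a fold above 1.5, and was tested where its mean was at least 5 normalized counts. Nothing in the labels says which mice shared a cage or litter, beyond a number that opens each mouse's identifier (10 in 10-2L), and all but 1 of those numbers occurred in a single group. The targeted gene Cmklr1 matched the labels. It stood at 40.8 to 114 normalized counts in WT lean and 9.72 to 22.6 in KO lean livers, and at 33.3 to 102 in WT obese and 5.08 to 23.2 in KO obese livers.

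Levels were low for most of these genes. Across the 28 vehicle-treated livers, 13 of the 39 genes had a median under 10 reads, 19 a median from 10 to 99 reads and 7 a median of 100 reads or more. In reads per kilobase of exon scaled to each liver's total reads on listed genes (RPKM), Ccnd1, the cyclin of G1 entry, stood highest with a median of 7.76 (range 4.46 to 24.99). Cdkn1a followed with a median of 6.85 RPKM and by far the widest range, from 0.903 to 50.1. Pcna, the sliding clamp of replication, had a median of 4.77 RPKM and stayed between 3.24 and 6.15. Gmnn, which encodes geminin, the inhibitor of the licensing factor Cdt1, had a median of 2.84 RPKM. Tk1 (thymidine kinase) and Rrm2, the regulated subunit of ribonucleotide reductase, had medians of 2.44 and 2.14 RPKM, and Rrm2 ranged from 0.874 to 10.8.

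Most genes of mitosis lay lower. Aurka, a kinase of the spindle poles, stood highest among them with a median of 1.18 RPKM (range 0.66 to 1.85), above all MCM genes in median. Mki67, the standard marker of cycling cells, had a median of 0.178 RPKM (19 to 170 reads), and Cdk1, the mitotic kinase, of 0.148 RPKM (7 to 32 reads). Ccnb1, which encodes cyclin B1, had a median of 0.0428 RPKM and 4 reads, and was at 0 reads in at least 1 liver. Bub1, a kinase of the spindle checkpoint, was lowest, with a median of 0.0159 RPKM and 2 reads. Genes of G1 control and nucleotide supply held 4 of the 6 highest ranks, and the ranges of neighbouring genes in this order overlapped. Where a gene has so few reads, counting error limits what can be resolved. The annotation places exons of other genes over those of Ccna2, Ccnd1, Ccne2, Mcm7, Cdc20, Plk1, Cdkn1a, Tk1, Cdt1, Foxm1, Kif20a, Nusap1 and Top2a, and names pseudogenes of Ccnb1, Ccnb2, Pcna and Tyms. No source used here gives the strand setting of the counting, so the values of these genes are uncertain by the reads they share.

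**Figure D1:**
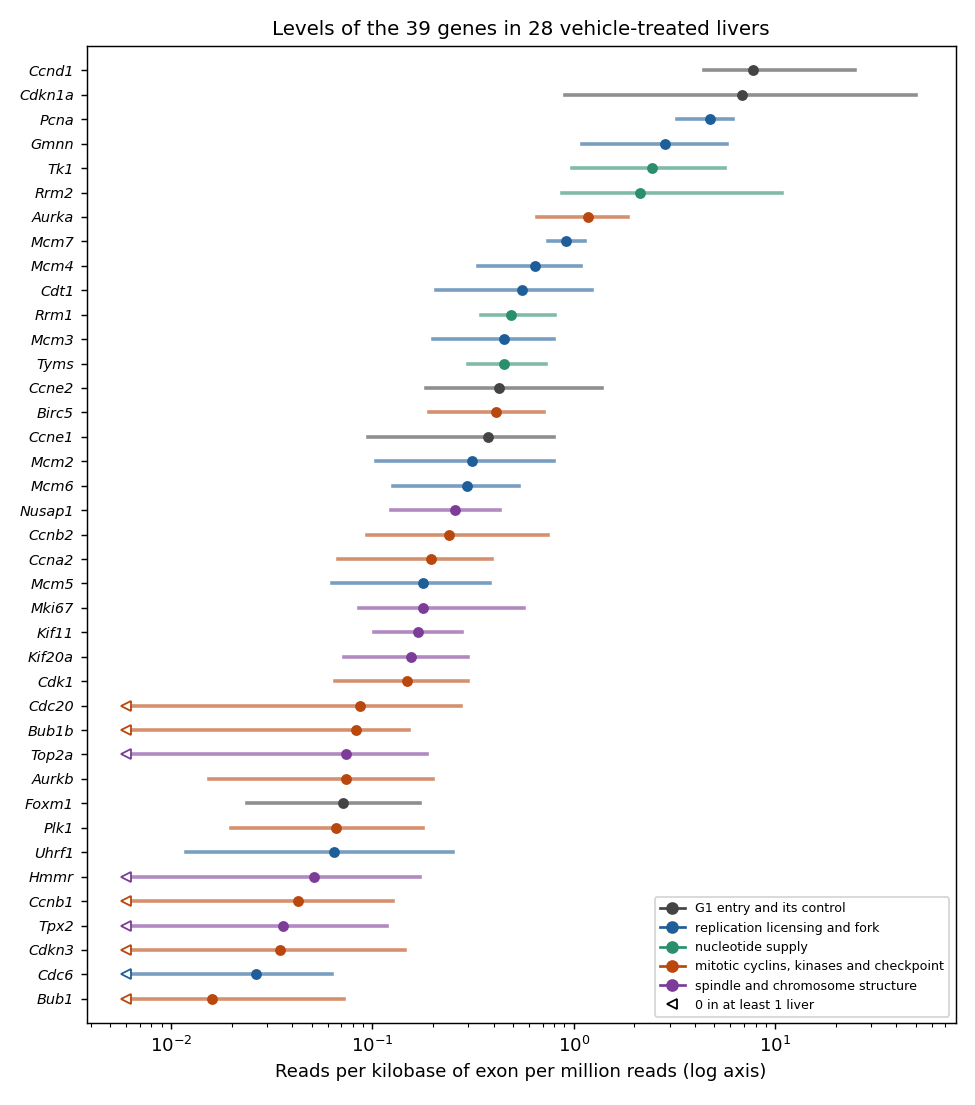
Lowest, median (point) and highest level of each of the 39 genes over 28 vehicle-treated livers, in RPKM on a log axis, coloured by role. Ccnd1 and Cdkn1a stand highest, Cdkn1a has the widest range, and genes with an open triangle were at 0 in at least 1 liver.

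The first comparison asks what the high-fat diet does in WT mice. Gmnn was the single gene of this set that was called, and it was higher in obese livers. Rrm2 had the largest estimate but was not called, and the mitotic genes gave no call. All 39 genes were listed and 32 were tested, so 1 of 32 was called, beside 3.8% of all 14012 genes tested. The median change of the 32 was 0.04 on the log2 scale, beside 0.00 over all genes, and the estimates ran from -0.79 (Cdkn1a) to 1.04 (Rrm2). An unadjusted p under 0.05 was found for 8 of the 32, beside 18.2% of all genes tested.

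Gmnn ranged from 50.0 to 81.4 normalized counts in WT lean livers (median 68.3, n = 7) and from 78.8 to 182 in WT obese livers (median 131, n = 7). Of the 7 obese livers, 6 stood above every lean liver, and the 7th, 22L, overlapped with the lean group. The log2 fold change (Log2FC) was 0.92 (SE 0.18, limma adjusted p = 0.00879). Gmnn remained called when any 1 mouse was left out, at Log2FCs from 0.83 to 1.03.

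No other gene of licensing or the replication fork was called. Mcm3, a subunit of the MCM2-7 helicase, ranged from 29.3 to 42.2 normalized counts in WT lean (median 35.1) and from 40.3 to 54.0 in WT obese livers (median 49.6). Its Log2FC of 0.45 (SE 0.14, limma adjusted p = 0.0919) passed the p threshold, as 6.27% of all genes tested did, and not the fold threshold. Mcm5, another subunit, named here after its values were seen, ran from 5.84 to 16.75 in lean and from 16.81 to 24.4 in obese livers. It was the single tested gene of the set whose groups did not overlap, beside 1.36% of all genes tested, and its adjusted p was 0.13 (limma, Log2FC 0.65, SE 0.22). Mcm2 had medians of 41.4 in lean and 57.6 in obese livers, Mcm6 of 35.7 and 32.7, and Pcna of 276 and 248.8, and their groups overlapped widely.

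Rrm2 supplies the radical-bearing subunit that makes deoxynucleotides in S phase. It ranged from 71.4 to 191 normalized counts in WT lean livers (median 106) and from 94.0 to 777 in WT obese livers (median 253). Of the obese livers, 4 stood above all lean livers and 3 lay among them. Its Log2FC was 1.04 (SE 0.38, limma adjusted p = 0.152). The obese livers split by the number that opens the identifier: the 3 mice of number 6 had 94.0 to 132, the 3 of number 27 had 253 to 397, and 22L had 777. Without 22L the Log2FC was 0.75 (adjusted p = 0.179), and without 6R it was 1.26 with a call (adjusted p = 0.0821). It was also called by edgeR (Log2FC 1.32, adjusted p = 0.0848) and DESeq2 (1.33, adjusted p = 0.0149) on the recovered reads. Of the other nucleotide enzymes, Tk1 had medians of 301 and 434 normalized counts in lean and obese livers, and Rrm1, the partner of Rrm2, and Tyms, the thymidylate synthase, also gave estimates above 0 without a call.

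Genes of G1 entry gave no call. Ccnd1 ranged from 480.2 to 2146 normalized counts in WT lean (median 824) and from 494 to 1589 in WT obese livers (median 739). Ccne1 and Ccne2 encode the E-type cyclins. Ccne1 had medians of 12.2 in lean and 22.5 in obese livers, with a Log2FC of 0.78 (SE 0.34, unadjusted p = 0.034 and adjusted p = 0.23 by limma), and Ccne2 had medians of 31.6 and 42.5.

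Cdkn1a was the most uneven gene of the set. It ran from 299 to 2427 normalized counts in WT lean livers (median 489) and from 60.9 to 3963 in WT obese livers (median 205). The highest and the 4 lowest of all 14 livers were obese ones, so the obese group spread to both sides of the lean group. The limma estimate was -0.79 (SE 0.79, adjusted p = 0.649), with a 95% interval from -2.45 to 0.88. On the recovered reads edgeR gave 0.043 and DESeq2 0.051, which has the other sign, and without 22L the limma estimate was -1.36 (adjusted p = 0.25).

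None of 7 tested mitotic cyclins, kinases and checkpoint genes and none of 6 tested spindle and chromosome genes was called in WT mice, and 4 of those 7 and 5 of those 6 estimates lay below 0. Mki67 ranged from 29.2 to 65.8 normalized counts in WT lean (median 45.7) and from 27.5 to 48.3 in WT obese livers (median 36.5, limma adjusted p = 0.389). Top2a, the topoisomerase that untangles sister chromatids, had medians of 16.4 and 14.2. Cdk1 had medians of 18.7 and 14.1, and Ccna2, which encodes cyclin A2, of 18.3 and 13.8. Kif11, the motor that pushes spindle poles apart, ranged from 21.3 to 36.5 in lean and from 20.0 to 33.5 in obese livers (Log2FC -0.38, SE 0.17, limma adjusted p = 0.24). Foxm1 ran from 5.23 to 18.1 in lean and from 3.35 to 13.2 in obese livers, and Aurkb from 1.74 to 11.7 and from 2.23 to 14.4. The genes under the minimum for a test were Ccnb1, Cdc20, Bub1, Plk1, Cdkn3, Cdc6 and Tpx2, and Ccnb1 stood at 0 to 9.59 normalized counts in obese and 1.22 to 7.45 in lean livers.

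**Figure D2:**
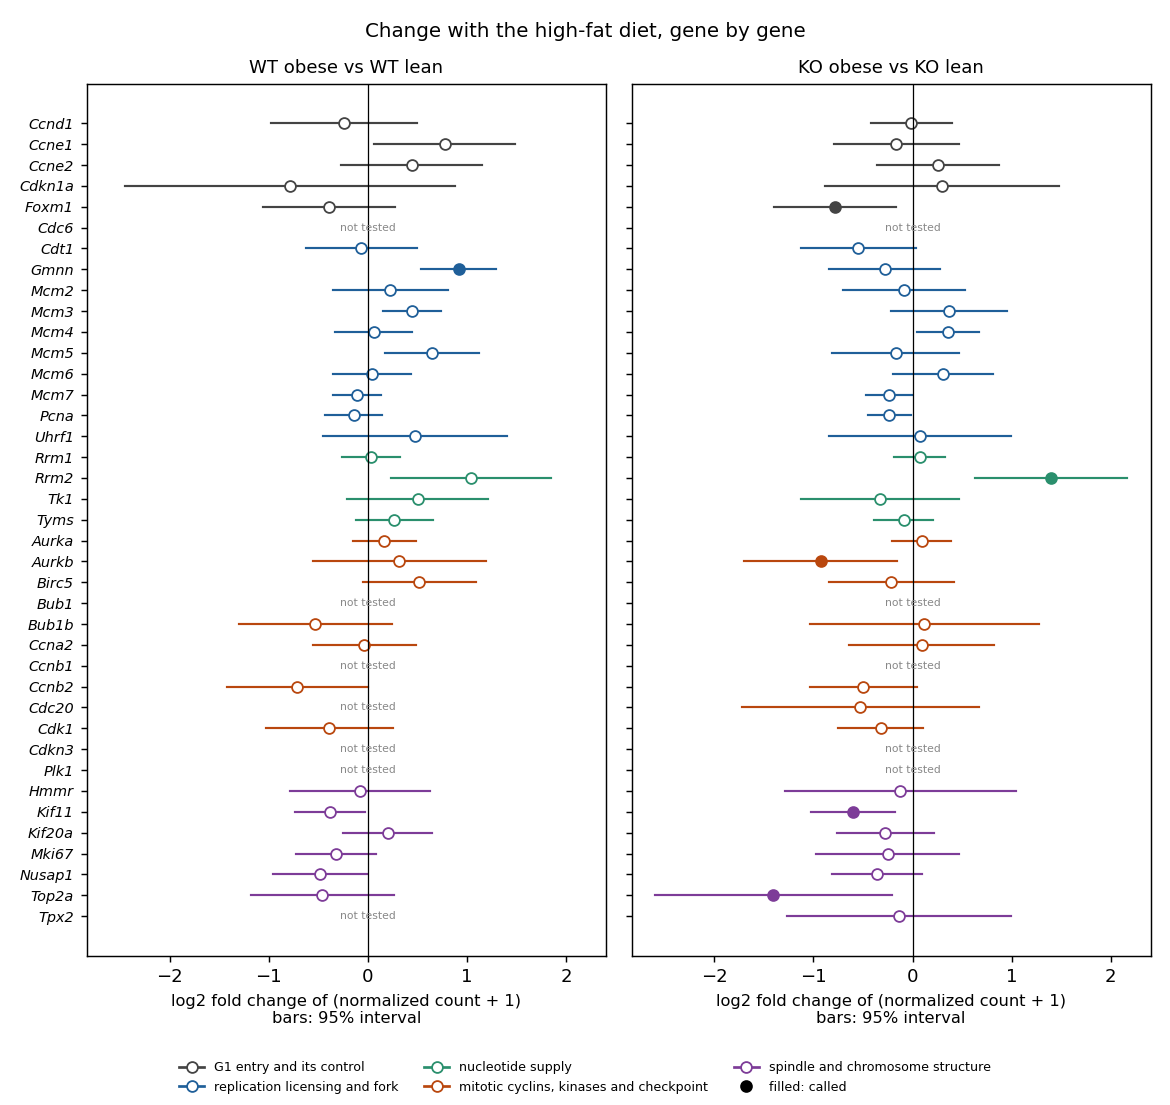
Log2 fold change with the high-fat diet and its 95% interval (bars) for each gene tested in WT mice (left) and KO mice (right), grouped by role. Filled points are called: Gmnn in WT mice, and Rrm2, Foxm1, Aurkb, Kif11 and Top2a in KO mice.

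The next comparison asks the same of the diet in mice without ChemR23. Rrm2 rose in KO obese livers, and 4 genes fell. They were Kif11 and Top2a, 2 of 7 tested genes of spindle and chromosome structure, Aurkb, the kinase of the chromosomal passenger complex and 1 of 8 tested mitotic cyclins, kinases and checkpoint genes, and Foxm1, 1 of 5 genes of G1 entry and its control, which encodes a transcription factor of G2 and M phase genes. All 39 genes were listed and 34 were tested, so 5 of 34 were called, 1 higher and 4 lower, beside 10.4% of all 14213 genes tested (4.97% higher and 5.42% lower). Aurkb and Tpx2 reached the minimum for a test through 1 group only, for Aurkb the lean livers, and among the 32 genes with a mean of at least 5 in both groups 4 were called. The median Log2FC of the 34 was -0.17, beside 0.00 over all genes, and 23 of the 34 estimates lay below 0. No gene of the set had groups that did not overlap, beside 2.1% of all genes tested.

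Rrm2 ranged from 68.5 to 166 normalized counts in KO lean livers (median 119.6) and from 111 to 644 in KO obese livers (median 409). Of the obese livers, 5 stood above every lean liver. Rrm2 had a Log2FC of 1.40 (SE 0.36, limma adjusted p = 0.021). Without any 1 mouse it stayed between 1.21 and 1.63 and was called, also without 23L. Here too the obese livers split by identifier number: the 3 mice of number 10 had 111 to 171 normalized counts, the 3 of number 31 had 409 to 473, and 23L had 644. With that number as a random block Rrm2 was still called (Log2FC 1.51, limma adjusted p = 0.0404). The block used 1 correlation shared by all genes. The diets were therefore not tested against the spread of Rrm2 itself between the 3 numbers in each.

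Fkbp5 and Igfbp1, genes of the glucocorticoid and fasting response, also differed among these mice. They are given beside Rrm2 and were named after their values were seen. Fkbp5 stood at 2506 to 3002 normalized counts in the 3 KO obese mice of number 10, at 5036 to 8060 in those of number 31 and at 9054 in 23L. Igfbp1 stood at 953 to 1181 in number 10, at 3929 to 9637 in number 31 and at 29355 in 23L. Numbers 31 and 23, which had more Rrm2, had more of both. In WT obese livers Igfbp1 stood at 1780 to 2726 in number 6, at 5287 to 7886 in number 27 and at 10541.5 in 22L. Fkbp5 overlapped between numbers 6 and 27, with 27RL at 3088 and 6L at 3226, and stood at 8018 in 22L. Neither gene was called between the KO diets (limma adjusted p = 0.235 for Fkbp5 and 0.403 for Igfbp1), and the part of this response in the Rrm2 value was not tested.

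Cdkn1a ranged from 221 to 865 normalized counts in KO lean livers (median 683) and from 216 to 5019 in KO obese livers (median 605). The highest obese values were those of 23L, at 5019, and 31L, at 2163, and the other 5 lay among or just below the lean values. Cdkn1a had a Log2FC of 0.30 (SE 0.56, limma adjusted p = 0.75), and without 23L it was -0.16.

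**Figure D3:**
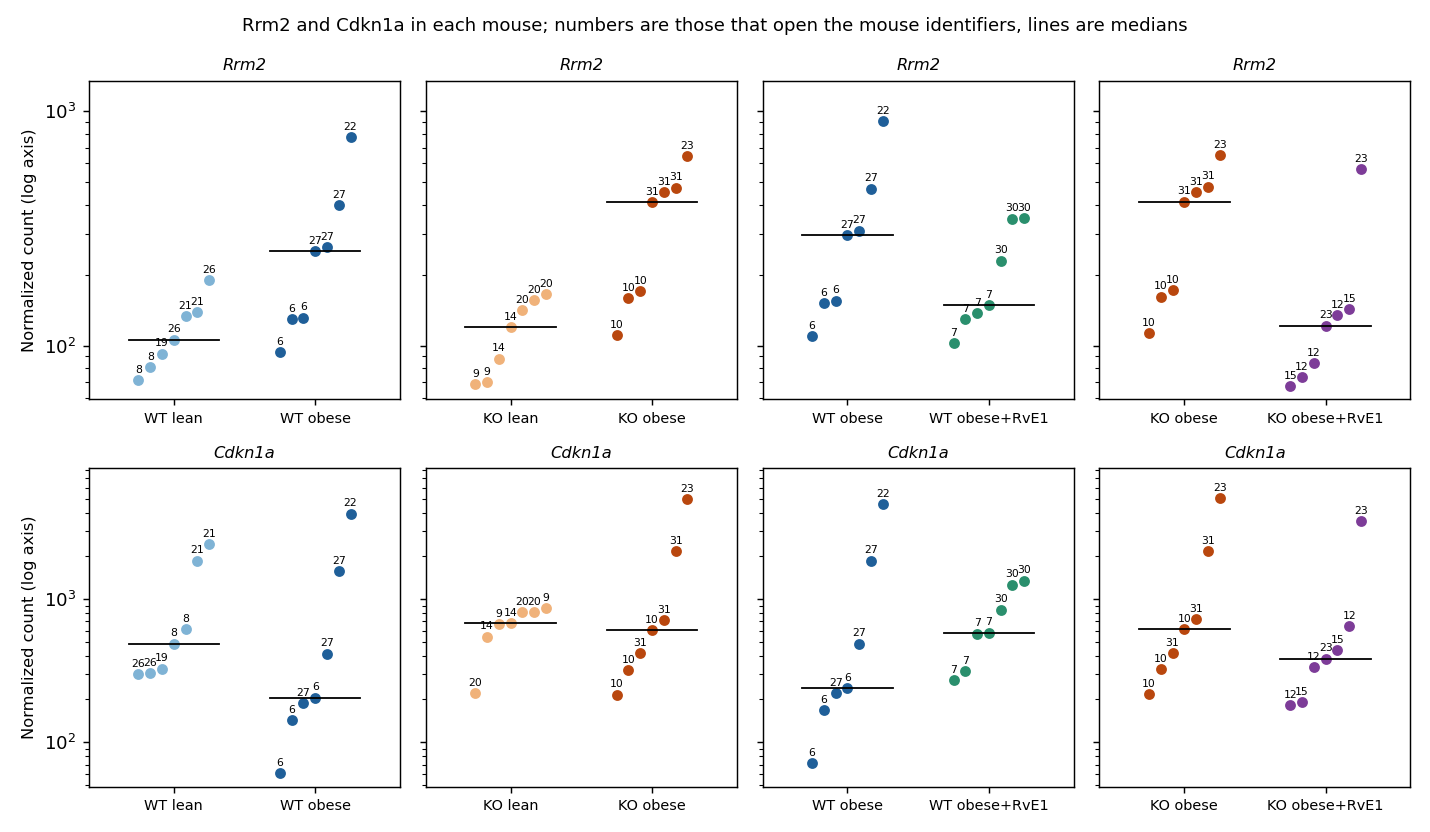
Normalized counts (log axes) of Rrm2 (top) and Cdkn1a (bottom) in each of the mice of the 2 diet and the 2 RvE1 comparisons, with medians as lines and the identifier number over each point. Obese mice of numbers 22, 23, 27, 30 and 31 include the highest Rrm2 values, and 22L, 23L and 23-2L hold the highest Cdkn1a values.

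Kif11 ranged from 29.7 to 55.6 normalized counts in KO lean livers (median 37.8) and from 16.1 to 35.3 in KO obese livers (median 26.9). Of the obese livers, 5 stood below every lean liver. Kif11 had a Log2FC of -0.60 (SE 0.20, limma adjusted p = 0.0551). Its call ended without 20-2L, 9L or 9RL, at adjusted p up to 0.11, and without 10-2L, where the Log2FC of -0.49 fell short of the fold threshold.

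Top2a ranged from 11.9 to 41.6 normalized counts in KO lean livers (median 20.2, 8 to 45 reads) and from 0 to 21.9 in KO obese livers (median 8.26, 0 to 34 reads). Of the obese livers, 4 stood below every lean liver, and 23L had no Top2a read. Top2a had a Log2FC of -1.41 (SE 0.57, limma adjusted p = 0.0988), and without 23L one of -0.88 (adjusted p = 0.105). The call ended without any of 10 of the 14 mice, at adjusted p up to 0.166 (14-2L, 14RL, 20-2L, 20L, 9L, 9RL, 10RL, 23L, 31L and 31N), and also by edgeR (adjusted p = 0.111), with TMM scaling (0.101), with no filter (0.101) and with a pseudocount of 0.5 (0.116).

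Foxm1 ranged from 9.06 to 15.3 normalized counts in KO lean livers (median 11.9) and from 3.10 to 14.1 in KO obese livers (median 7.78). All obese livers except 23L stood below every lean liver. Foxm1 had a Log2FC of -0.78 (SE 0.29, limma adjusted p = 0.078), and its call ended without 14RL, 20-2L, 9L, 9RL, 10RL, 10R, 31N or 31R, at adjusted p up to 0.146. Foxm1 overlaps the annotated genes Gm44596 and Tex52, whose reads cannot be told apart from its own here.

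Aurkb ranged from 2.93 to 14.5 normalized counts in KO lean livers (median 7.55, 3 to 15 reads) and from 1.18 to 6.44 in KO obese livers (median 3.33, 1 to 10 reads). Of the obese livers, 3 stood below every lean liver. Aurkb had a Log2FC of -0.93 (SE 0.37, limma adjusted p = 0.094). Aurkb had a mean of 3.69 in KO obese and 7.76 in KO lean livers and so entered the test through the lean group. Its call ended without 14-2L, 14RL, 20-2L, 20L, 9RL, 10RL, 23L, 31L, 31N or 31R, at adjusted p up to 0.169, and also by DESeq2 (adjusted p = 0.119) and with library quality weights (0.154).

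With mice of 1 identifier number treated as a random block, or with libraries scaled to equal totals, Rrm2 alone of the 5 genes was called. The block took the calls over all genes from 1476 to 750. Equal totals moved the median of all genes by 0.14 on the log2 scale in this comparison and the calls over all genes from 706 higher and 770 lower to 1324 higher and 351 lower. Under that scaling the 4 lower genes had estimates from -0.46 (Kif11) to -1.26 (Top2a) with adjusted p from 0.158 to 0.19 by limma.

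**Figure D4:**
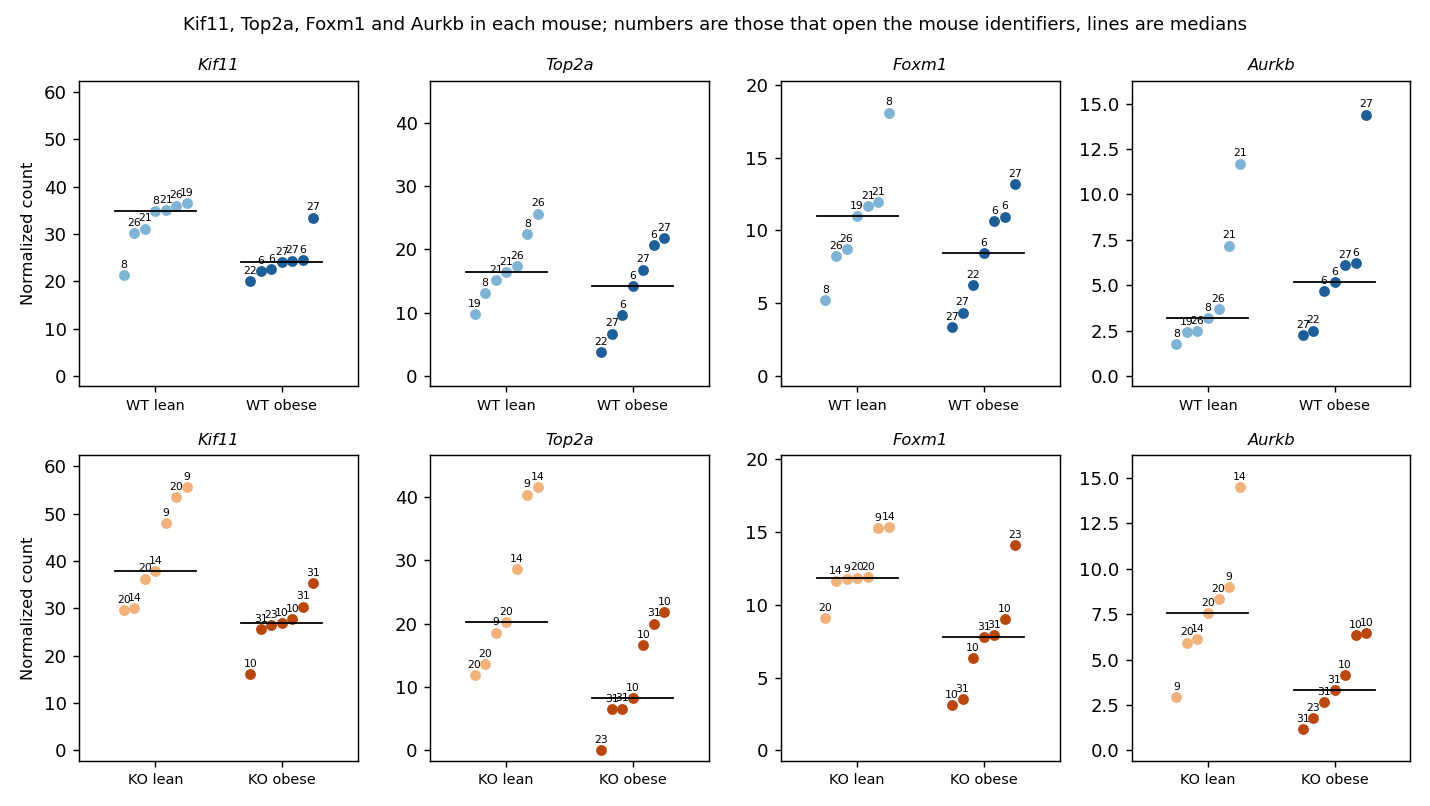
Normalized counts of Kif11, Top2a, Foxm1 and Aurkb in each WT mouse (top) and KO mouse (bottom), with medians as lines and the identifier number over each point. KO obese medians lie below KO lean medians for all 4 genes, and the groups overlap in every panel.

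Markers of other liver cells moved in the same comparison. Of 11 tested markers of Kupffer cells and macrophages 8 were called lower in KO obese livers, and their summed level ran from 6406 to 8957 normalized counts there and from 11481 to 24112 in KO lean livers, without overlap. Of 8 tested markers of B and plasma cells 7 were called lower, but their sum was nearly all Sdc1, which hepatocytes also express, at 5549 to 9473 normalized counts in KO obese and 10938 to 16481 in KO lean livers. The B cell markers proper were low: Ms4a1 stood at 1.32 to 13.4 and 14.5 to 41.3, and Cd79b at 2.64 to 14.2 and 10.6 to 26.0, where the groups overlapped. Of 7 tested T and NK cell markers 2 were called lower, as were 1 of 10 each of endothelial and of stellate cell and fibroblast markers, and 1 of 5 erythroid markers, while none of 9 hepatocyte, 6 neutrophil and 6 cholangiocyte markers was called. No listed marker was at 0 in every liver, and no marker of any of these lists was called between the diets in WT mice. The part of these cells in the values of Kif11, Top2a, Foxm1 and Aurkb was not tested. In bulk liver, fewer cells of a type and less RNA per cell cannot be told apart.

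The other cell cycle genes of KO mice stayed without a call. Mki67 ranged from 26.4 to 152 normalized counts in KO lean livers (median 48.9), where 9RL was highest, and from 27.0 to 73.3 in KO obese livers (median 40.9). Its Log2FC had a 95% interval from -0.98 to 0.47. Cdk1 had medians of 20.3 and 15.9 in lean and obese livers, Ccna2 of 16.6 and 20.6, Ccne1 of 26.6 and 23.3, and Ccne2 of 30.0 and 44.1. Ccnd1 stood at medians of 933 and 1104, with an interval of the Log2FC from -0.42 to 0.40. Mcm2 had medians of 59.7 and 67.1, Mcm3 of 34.7 and 47.5, Mcm6 of 26.4 and 35.4 and Pcna of 311 and 278. Mcm4, named after its value was seen, came closest to a pass among the helicase genes, with a Log2FC of 0.36 (SE 0.15, limma adjusted p = 0.104). Ccnb1, which with Bub1, Plk1, Cdkn3 and Cdc6 was under the minimum for a test, had 1.48 to 14.3 in lean and 0 to 5.56 in obese livers.

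Gmnn was not called with diet in KO mice. It ranged from 51.9 to 248.5 normalized counts in KO lean (median 129.5) and from 80.4 to 157 in KO obese livers (median 106), with the obese values inside the lean range. The Log2FC was -0.28 (SE 0.26, limma adjusted p = 0.496). The test of the difference between the genotypes' diet effects gave -1.20 (KO minus WT, SE 0.33, unadjusted p = 0.00111), which did not pass after adjustment (limma adjusted p = 0.141). It passed with library quality weights (adjusted p = 0.0122), by edgeR (0.095) and by DESeq2 (0.0157), and by limma without 22L (0.0623) or 20R (0.0155). Over all 14093 genes, 2537 passed with those weights, 39 by edgeR and 930 by DESeq2, against 1 in the main fit. Of the 32 genes tested for this difference none passed by limma, beside 0.0071% of all 14093 genes, while 3 had an unadjusted p under 0.05 by limma, beside 18.2% of all genes, and 2 each by edgeR and DESeq2. For Rrm2 the difference was 0.35 (95% interval from -0.80 to 1.505, limma adjusted p = 0.787), so both genotypes' diet estimates were positive and their difference was not resolved.

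The comparison of KO lean with WT lean mice asks what the loss of ChemR23 does on the control diet. Gmnn again was the single gene called, and it was higher in KO lean livers. The tables listed 28 of the 39 genes here, all of them tested, so 1 of 28 was called, beside 6.65% of all 13031 genes tested (3.94% higher and 2.7% lower). No gene had groups that did not overlap, beside 0.744% of all genes tested. The genes not listed were Ccnb1, Cdc20, Bub1, Bub1b, Plk1, Aurkb, Cdkn3, Cdc6, Uhrf1, Hmmr and Tpx2.

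Gmnn ranged from 51.7 to 84.9 normalized counts in WT lean (median 71.3) and from 47.3 to 226 in KO lean livers (median 118). All KO lean livers except 20R stood above every WT lean liver, and 20R stood below them all. The Log2FC was 0.82 (SE 0.26, limma adjusted p = 0.0615). The call ended without 21L, 26R, 8R, 14RL, 20-2L, 20L or 9L, at adjusted p up to 0.127, while without 20R the Log2FC was 1.05 (adjusted p = 0.00284). With mice of 1 identifier number treated as a random block, which took the calls over all genes from 866 to 3, the Log2FC was 0.83 (adjusted p = 0.169). With equal totals, which moved the median of all genes by -0.12 and the calls over all genes from 514 higher and 352 lower to 265 higher and 734 lower, the adjusted p was 0.111. The 7 WT lean livers are the controls both here and in the WT diet comparison, so these 2 values for Gmnn are not independent. Of 11 tested Kupffer cell and macrophage markers 9 were called higher in KO lean livers, with sums from 10417 to 21863 normalized counts against 4583 to 9535 in WT lean livers. Of 7 B and plasma cell markers 2 were called higher (Ms4a1 and Cd79b), of 10 stellate cell and fibroblast markers 1 higher (Lum) and of 6 cholangiocyte markers 1 lower (Krt19), while none of 9 hepatocyte, 10 endothelial, 5 erythroid, 3 neutrophil and 2 T and NK cell markers was called. The part of these cells in the Gmnn value was not tested.

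**Figure D5:**
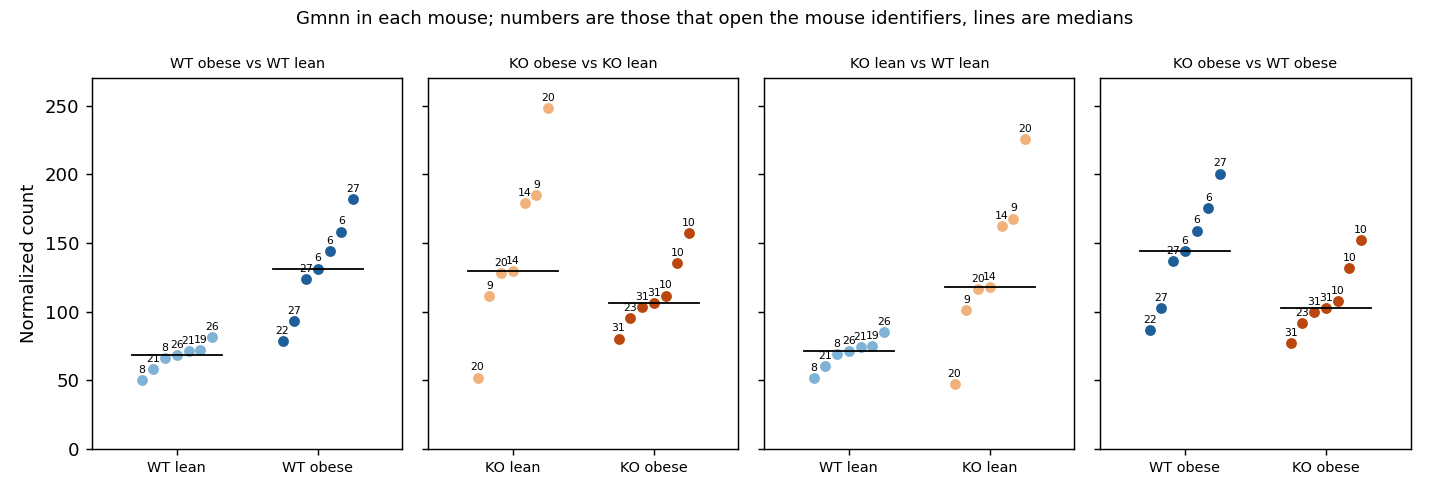
Normalized counts of Gmnn in each mouse of the 4 comparisons among vehicle-treated mice, with medians as lines and the identifier number over each point. WT lean livers lie low and close together (50.0 to 81.4 in the first panel), and KO lean livers spread most, with 20R as low as the WT lean livers.

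No other gene of the set differed between lean genotypes beyond the threshold. Rrm2 ranged from 62.2 to 151 normalized counts in KO lean and from 74.3 to 199.7 in WT lean livers. Cdkn1a ran from 201 to 785 in KO lean livers and from 312 to 2522 in WT lean livers, where 21L and 21R, at 1930 and 2522, stood apart from the other 5. Mki67 had medians of 44.6 in KO lean and 47.3 in WT lean livers, Top2a of 18.4 and 17.0, Cdk1 of 18.5 and 19.4, and Ccna2 of 15.1 and 19.0. Ccnd1 had medians of 848 and 856, Ccne1 of 24.1 and 12.7, Ccne2 of 27.2 and 32.8, Mcm2 of 54.2 and 43.0, Mcm3 of 31.5 and 36.4, Kif11 of 34.4 and 36.2, Foxm1 of 10.8 and 11.4, Mcm6 of 24.0 and 37.2, and Pcna of 282 and 288. Tyms, named after its value was seen, had a Log2FC of 0.32 (SE 0.14, unadjusted p = 0.0338 and adjusted p = 0.149 by limma).

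Between KO obese and WT obese livers none of the 32 tested genes was called, beside 0.0141% of all 14162 genes tested, and by limma 1 gene had an unadjusted p under 0.05, beside 2.25% of all genes. edgeR and DESeq2 also called none and each had 2 genes at an unadjusted p under 0.05. The gene by limma was Tk1, named after its value was seen, at 147 to 425 normalized counts in KO obese and 193 to 647 in WT obese livers (Log2FC -0.70, SE 0.29, unadjusted p = 0.0265 and adjusted p = 1.00). Rrm2 ranged from 108 to 618 in KO obese and from 103 to 852 in WT obese livers, with a Log2FC of 0.15 and a 95% interval from -0.85 to 1.14. Gmnn had medians of 103 and 144 (Log2FC -0.38, SE 0.19), Top2a of 8.01 and 15.7, Mki67 of 39.1 and 40.4, and Ccnd1 of 1059 and 811. Cdkn1a ran from 208 to 4815 in KO obese and from 67.1 to 4347 in WT obese livers. Kif11 had medians of 26.0 and 26.4, Foxm1 of 7.48 and 9.29, Aurkb of 3.21 and 5.65, Cdk1 of 15.3 and 15.5, Ccna2 of 19.8 and 15.1, and Ccnb1, under the minimum for a test, of 2.00 and 4.94. Ccne1 had medians of 22.4 and 24.8, Ccne2 of 42.3 and 46.6, Mcm2 of 65.1 and 63.3, Mcm3 of 46.1 and 54.8, Mcm6 of 34.5 and 36.2, and Pcna of 267 and 273. The groups overlapped for all of these genes, beside 0.0282% of all genes tested with groups that did not overlap.

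The comparisons with RvE1 ask whether 4 days of the lipid mediator change the obese liver. None of the 26 tested genes was called by limma in WT mice, beside 0% of all 13085 genes tested. In KO mice none of 33 was called, beside 0% of all 14207. On the recovered reads edgeR called 1 of all genes in WT mice and 0 in KO mice. DESeq2 called 15 and 14, none of them in this set. By limma 1 gene in WT and 2 genes in KO mice had an unadjusted p under 0.05, beside 6.08% and 8.3% of all genes. By edgeR and DESeq2 there were 0 such genes of the set each in WT mice and 1 and 0 in KO mice. The WT table did not list Ccnb1, Ccnb2, Cdc20, Bub1, Bub1b, Plk1, Aurkb, Cdkn3, Cdc6, Foxm1, Uhrf1, Hmmr and Tpx2, and the KO table did not list Ccnb1, Bub1, Plk1, Cdkn3 and Cdc6.

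In WT mice Ccnd1 came nearest. It ranged from 579 to 1865 normalized counts in WT obese (median 866) and from 1071 to 1556 in WT obese+RvE1 livers (median 1259), so that the treated values lay inside the untreated range. The Log2FC was 0.45 (SE 0.20, unadjusted p = 0.0401 and adjusted p = 0.798 by limma). Rrm2 ranged from 110.2 to 910.4 in WT obese and from 103 to 351 in WT obese+RvE1 livers (Log2FC -0.53, SE 0.42, adjusted p = 0.94 by limma). Among treated mice the 3 of number 30 had 231 to 351 normalized counts and the 4 of number 7 had 103 to 149, a split like that of the vehicle mice. Cdkn1a split the same way, at 846 to 1351 in number 30 and 273 to 584 in number 7.

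In KO mice Rrm2 gave the largest estimate. It ranged from 113 to 649 normalized counts in KO obese (median 412) and from 67.1 to 565 in KO obese+RvE1 livers (median 122). Of the treated livers, 6 lay between 67.1 and 143 and 23-2L stood at 565. The Log2FC was -1.19 (SE 0.47, unadjusted p = 0.0217 and adjusted p = 0.572 by limma), and without 23-2L it was -1.54 (adjusted p = 0.153). Number 23 was the single number found in both groups: 23L, untreated, had 649, and the treated 23-2L and 23RL had 565 and 122. The other untreated mice were of numbers 10 and 31, low and high in Rrm2 in the diet comparison, and the other treated mice of numbers 12 and 15. An effect of RvE1 on Rrm2 and this difference in numbers cannot be told apart. Fkbp5 stood at 9125 in 23L, 5515 in 23-2L and 1724 in 23RL, and Cdkn1a at 5059, 3532 and 384, the same order as Rrm2. Igfbp1 had another order, at 29587, 37510 and 1293, and Zbtb16 and Per1 were likewise highest in 23-2L. The difference between the genotypes' RvE1 effects on Rrm2 was -0.66 (KO minus WT, 95% interval from -2.03 to 0.71, limma adjusted p = 1.00), and none of the 26 genes tested for this difference passed, beside 0% of all 13061, with none at an unadjusted p under 0.05 by limma, edgeR or DESeq2, beside 2.39% of all genes by limma.

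Mcm2, a helicase subunit, was the other gene of KO mice with an unadjusted p under 0.05. It ranged from 30.2 to 120.0 normalized counts in KO obese (median 67.9) and from 63.3 to 119 in KO obese+RvE1 livers (median 81.2), with a Log2FC of 0.61 (SE 0.28, adjusted p = 0.589 by limma). Mki67 varied more among treated KO mice than between groups: 15R had 8.12, 12-2L had 117, 23RL had 97.7, and the group's median of 35.5 lay near the 41.0 of untreated KO obese livers. Top2a had medians of 11.4 with and 8.35 without RvE1 in KO mice and of 16.9 and 16.7 in WT mice. Cdk1 had medians of 19.0 and 16.0 in KO mice, where 4 treated livers stood above and 3 below all untreated ones, and of 12.1 and 16.5 in WT mice. Pcna stood at medians of 271 and 280.3 in KO mice and of 293 and 292 in WT mice. Gmnn had medians of 140.5 with and 107 without RvE1 in KO mice and of 124 and 154 in WT mice, Kif11 of 20.52 and 27.2 and of 31.9 and 28.1, and Ccna2 of 18.6 and 20.8 and of 16.4 and 16.1.

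Among the G1 and replication genes, Ccne1 had medians of 16.2 with and 23.5 without RvE1 in KO mice and of 23.8 and 26.4 in WT mice. Ccne2 had medians of 45.4 and 44.5 in KO and 37.1 and 49.8 in WT mice, Mcm3 of 55.4 and 48.0 and of 53.5 and 58.5, and Mcm6 of 29.8 and 36.1 and of 32.7 and 38.6. Ccnd1 stood at medians of 996 and 1113 in KO mice and Mcm2 at 88.3 and 67.6 in WT mice, while Mki67 stood at 44.9 and 43.1 in WT mice. Foxm1, listed for KO mice only, had medians of 7.86 and 7.85, and Aurkb, under the minimum for a test there, of 5.07 and 3.36. Cdkn1a ran from 183 to 3532 with and from 218 to 5059 without RvE1 in KO mice and from 273 to 1351 and 71.5 to 4646 in WT mice.

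Other genes of the pathway, outside the 39, were counted by list, and their counts stand beside the 3.8% of all genes called with diet in WT mice, 10.4% in KO mice and 6.65% between lean genotypes. Of other S phase genes, 0 of 28 tested were called with diet in WT mice and 1 of 29 in KO mice, which was Pole, a replicative polymerase (Log2FC 0.72, limma adjusted p = 0.0651). Of other G2 and M phase genes 1 of 30 was called in WT and 1 of 34 in KO mice. It was the same gene, Nek2, a centrosome kinase, at 27.5 to 63.8 normalized counts in WT obese and 66.6 to 171 in WT lean livers (Log2FC -1.04, limma adjusted p = 0.0292) and at 35.3 to 79.5 in KO obese and 55.1 to 199.996 in KO lean livers (-1.01, adjusted p = 0.036). The KO lean livers split by identifier number, with Nek2 at 55.1 to 92.7 in number 20 and at 156 to 199.996 in numbers 9 and 14. Of other G1 cyclins, kinases and inhibitors, 1 of 18 was called in WT mice and 2 of 17 in KO mice. Wee1, the kinase that holds Cdk1 inactive and a gene under clock control, was called higher in both (Log2FC 1.49, adjusted p = 0.0348 in WT and 1.55, adjusted p = 0.0245 in KO mice, limma). In KO lean livers Wee1 stood at 289 to 562 normalized counts in number 20 and at 57.7 to 151 in numbers 9 and 14. The KO obese livers had 320 to 806. The part of these splits by identifier number in the diet values of Nek2 and Wee1 was not tested. Cdkn2c, an inhibitor of Cdk4 and Cdk6, fell in KO mice (-0.68, adjusted p = 0.0585).

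Of 16 tested genes of the E2F and RB family, 2 were called with diet in each genotype. E2f1, an activating factor, rose (Log2FC 0.59, limma adjusted p = 0.0825 in WT and 0.87, adjusted p = 0.0287 in KO mice), and E2f8, an atypical repressor, fell (-0.61, adjusted p = 0.0889 and -0.76, adjusted p = 0.0101). The median Log2FC of this family was 0.08 in WT and 0.14 in KO mice. Of 21 tested p53 target genes, 2 were called in WT mice and 4 in KO mice, in both directions. Of 17 tested clock genes, 4 were called with diet in WT mice, 2 in each direction, and 6 in KO mice, 5 higher and 1 lower, with Per3 higher in both (1.48, adjusted p = 0.00284 and 1.11, adjusted p = 0.0305). Between lean genotypes the same lists gave 1 call each among other S phase genes (Mcm10 lower), other G2 and M phase genes (Mad2l1 higher), other G1 genes (Cdkn2d higher) and the E2F and RB family (E2f7 lower), 1 among p53 target genes (Bbc3 higher) and 2 among clock genes (Bhlhe40 and Nfil3 lower). Of 16 tested fasting and glucocorticoid response genes 2 were called lower with diet in WT mice (Pdk4 and Igfbp1), 3 were called in KO mice (Lcn2 and Zbtb16 higher, Angptl4 lower) and none between lean genotypes. Immediate early genes gave 3 lower of 15 with diet in WT mice, 1 higher of 14 in KO mice and 3 lower of 14 between lean genotypes. By limma with the fold threshold, no gene of these lists was called between obese genotypes or with RvE1. The paper, by DESeq2, reported Myc of the G1 list as lower with RvE1 in WT obese mice. It reported Bbc3 of the p53 list as higher with RvE1 in KO obese mice.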

How the data were processed

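Livers of 42 mice were sequenced as paired-end RNA libraries (TruSeq Stranded total RNA per the methods, polyA RNA per the labels). The authors aligned reads to mm10 with Bowtie2, counted them with featureCounts and ran DESeq2 once per pair of groups; versions, annotation and the strand option are not given in the sources that were used. The deposited values are a signal, DESeq2-normalized counts, scaled separately in each of 6 tables. The tables also hold the authors' own fold changes and p-values, which were not used. Dividing each value by the step that 1 read is worth gave whole reads for 100% of values (tolerance 0.1 reads), and no 2 libraries of a group agreed within sampling noise.

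The main test was limma 3.58.1 (R 4.3.3, lmFit and eBayes with trend, two-sided) on log2(normalized count + 1), so that folds of low genes are understated. Genes with a mean of at least 5 over a table's libraries were tested, with Benjamini-Hochberg adjustment over all of them. Differences between genotypes were contrasts over both tables at adjusted p under 0.1. On simulated data with 200 genes changed by 1.5 on the log2 scale, recovery for the diet was 97% in WT (14012 genes) and 98% in KO mice (14213). For genotype it was 95.5% on the lean (13031) and 96.5% on the obese side (14162), for RvE1 95% in WT (13085) and 90% in KO mice (14207), for the interaction of diet and genotype 88% (14093) and for that of RvE1 and genotype 81.5% (13061). The changed genes were drawn above a higher minimum mean count than that of the test, and the simulated mice were independent. These shares therefore do not describe the lowest genes of the set, smaller changes, or mice that resemble each other within an identifier number. Alternatives were pseudocounts of 0.5 and 4, no filter, TMM and equal-total scaling, the identifier number as a random block, library quality weights, other thresholds, edgeR 4.0.16 and DESeq2 1.42.0 on recovered reads, and leaving out each mouse. Nothing in the labels gives more than 1 sample per mouse, and p-values measure the spread between mice. Except under the random block, they treat the mice of a group as independent, also those of 1 identifier number.

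The 39 genes and all lists were chosen with earlier results of these data known. Values were given for genes called, or with an adjusted p under 0.1, in any comparison, for 13 preset genes (Mki67, Top2a, Cdk1, Ccnb1, Ccna2, Ccnd1, Ccne1, Ccne2, Cdkn1a, Mcm2, Mcm6, Pcna and Rrm2), and for at most 4 called genes of each other list per comparison; others are said to be named after their values were seen.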

Additional observations from a re-analysis of the deposited data

Results flagged for a closer look

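In 11 of 104 groups of 7 mice, tested for the genes described by mouse, 1 mouse stood apart from the other 6 by more than Dixon's 95% critical value for the gap over the range, taken on log2(normalized count + 1); chance gives about 1 in 20, or 5.2 of 104. On the normalized counts themselves 7 of the 11 also passed, and Cdkn1a in 20-2L, Top2a in 23L, Kif11 in 10-2L and Aurkb in 15R did not. For Rrm2, 23-2L stood at 565 normalized counts in KO obese+RvE1 livers, with the others at 67.1 to 143. For Cdkn1a, the same mouse stood at 3532, with the others at 183 to 652, and in KO lean livers 20-2L stood at 221, with the others at 548 to 865. Top2a was at 0 in 23L among KO obese livers, with the others at 6.47 to 21.9, and Aurkb at 0 in 15R among KO obese+RvE1 livers, with the others at 4.40 to 9.27.

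Kif11 had such a mouse in 3 groups: 8R at 21.3 in WT lean (others 30.2 to 36.5), 27-2L at 33.5 in WT obese (others 20.0 to 24.4) and 10-2L at 16.1 in KO obese livers (others 25.6 to 35.3). Cdk1 was lowest in 20R among KO lean livers, at 10.4 (others 19.7 to 24.5). Ccne2 was highest in 19R among WT lean livers, at 108 (others 14.9 to 34.0), and Ccna2 in 30L among WT obese+RvE1 livers, at 28.5 (others 14.5 to 19.1).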

How the results depend on the processing

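The number of genes of the set called with diet in WT mice was 1, and it was 2 with equal totals, with no fold threshold, by edgeR and by DESeq2, 0 at an absolute log2 fold change above 1.5, and 1 to 2 when 1 mouse was left out. In KO mice it was 5, and it was 6 with no filter on low counts, 4 by edgeR, by DESeq2, with TMM scaling and with a pseudocount of 0.5, 3 with a pseudocount of 4, 1 with equal totals, 1 with a random block for the identifier number, 1 at adjusted p under 0.05, 0 at an absolute log2 fold change above 1.5, and 1 to 5 when 1 mouse was left out. Between lean genotypes it was 1, and it was 0 with equal totals, with the random block, at adjusted p under 0.05 and at an absolute log2 fold change above 1.5, 2 with library quality weights, and 0 to 2 when 1 mouse was left out. For the difference of diet effects it was 0, and it was 1 with library quality weights, by edgeR and by DESeq2, and 0 to 1 when 1 mouse was left out. The weights, edgeR and DESeq2 passed 2537, 39 and 930 of all 14093 genes for that difference. It was 0 under every alternative run between obese genotypes, for RvE1 in either genotype and for the difference of RvE1 effects. Cdkn1a changed sign in WT mice by edgeR (0.043) and DESeq2 (0.051), and in KO mice with library quality weights (-0.43) and among the values without 1 mouse (-0.16 to 0.60), as did Rrm2 between obese genotypes (-0.067 to 0.44, below 0 without 6R or 23L). Beyond the smaller number of mice or the stricter threshold, the cause was not tested. No paired analysis was possible because the groups compared shared at most 1 identifier number, which was 23 in KO obese and KO obese+RvE1 mice. Depth limits the mitotic genes most: 13 of the 39 had a median under 10 reads.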
